A study of Mus musculus with 24 samples.

Results

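Lin-CD29+CD24+ cells were compared with the whole Lin- fraction in normal mouse mammary glands. The members are the arrays whose titles name a C57Bl6/J mammary gland together with either population, which gave 6 of the 24 arrays of the series, 3 for each population. The CD29+CD24+ cells are sorted from the Lin- fraction for an ordinary level of CD29 (integrin beta 1) together with CD24. Both populations came from Apc+/+ mice of strain C57BL6/J, from 3 pools of glands that carry the letters F, G and H. The remaining arrays are 3 of normal Lin-CD29hiCD24+ cells, which have high CD29, and 15 of the same populations from mammary tumours A to E of mice heterozygous for the 1572T allele of Apc (Apc+/1572T, same strain), which shortens this negative regulator of Wnt signalling. Each array holds RNA of 10000 sorted cells. The age of the mice, the number of glands in a pool and the antibodies of the Lin- depletion are not stated in the labels, and a pool may mix animals.

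The mammary ductal tree has an inner layer of luminal cells, which respond to hormones or make milk, and an outer layer of basal or myoepithelial cells, which contract to eject it. Around the ducts lies a stroma of fibroblasts, adipocytes, vessels and immune cells that lays down collagen and supplies growth factors. Luminal cells carry CD24 with modest CD29, basal cells carry more CD29, and most stromal cells carry little CD24. A sort on both markers is used to take the luminal layer away from the others.

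Values are log2 signals per gene, so that a difference of 1 is a change of 2-fold. Signals up to 2.83, which is the 40th percentile over the whole table, form a low band in which background removal leaves little signal, and differences that reach into it are compressed. Calls rest on limma with Benjamini-Hochberg adjustment over the 13485 genes tested, at an adjusted p below 0.05. A value after ± is the standard error of a difference, and values listed for a gate follow the order of pools F, G and H. The labels do not say how the pools differ, so p-values measure the spread between these pools and, through the shared fit, between the tumours.

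The 3 CD29+CD24+ arrays were close to each other, with correlations over all genes of 0.990 to 0.991. The Lin- arrays ran from 0.969 to 0.984 among themselves, with G the farthest, and from 0.940 to 0.962 against the CD29+CD24+ arrays. The 3' over 5' log2 ratio of the actin control probes, which grows as RNA shortens, was 1.59, 1.83 and 1.41 in the CD29+CD24+ arrays against 1.98, 2.86 and 1.54 in the Lin- arrays, so that Lin- G was the highest of the 6. With this ratio as a covariate the gate comparison gave 516 calls in place of the 565 reported next. By the description numbers in the labels, Lin- F, G and H are 93, 84 and 95, and the CD29+CD24+ arrays are 82, 85 and 88. What these numbers stand for is not stated. Lin- F and H lie outside the span of the other arrays compared, so gate and description number cannot be fully told apart.

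The CD29+CD24+ cells differed from the Lin- fraction mostly by what they lacked. Basal keratins, contractile proteins, collagens and other matrix genes were lower in them by up to 10.01 on the log2 scale, while luminal keratins, claudins and hormone receptors were high in both gates and none of them was called. Of the 13485 genes, 565 were called, which is 4.19%. They were 496 genes lower in CD29+CD24+ cells, or 3.68%, and 69 higher, or 0.512%. With the pool as a replicate block, 903 genes were called, 793 lower and 110 higher. Among the lower genes 241 differed by at least 8-fold and 90 by at least 32-fold, whereas 0 of the higher genes reached 8-fold. The arrays of the gates did not overlap for 536 of the 565 called genes, and for 18.4% of all genes. The median difference over all genes was -0.01. In sorted bulk RNA, fewer cells of a type and less RNA per cell cannot be told apart.

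**Figure D1:**
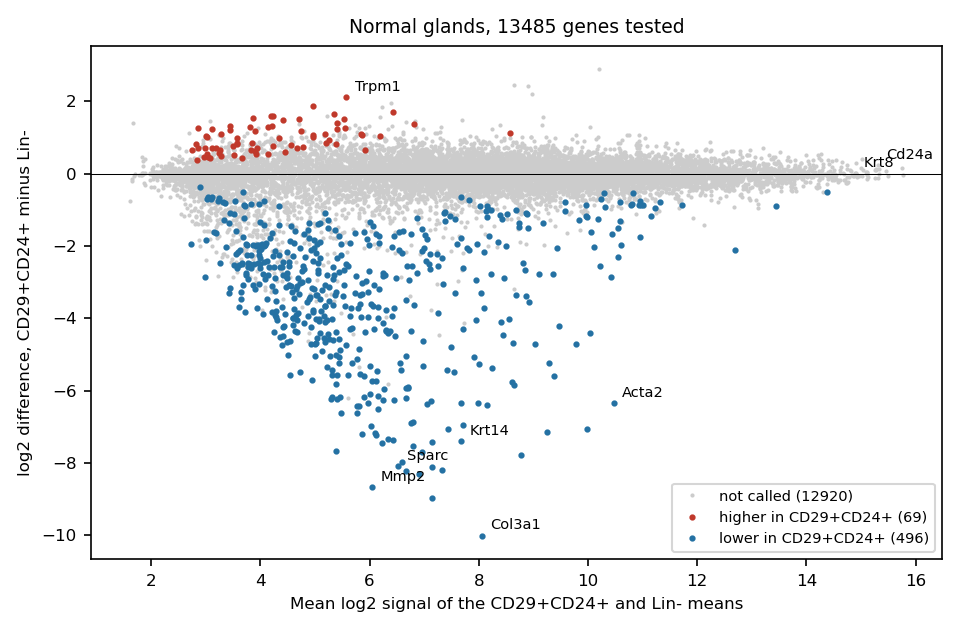
log2 difference between CD29+CD24+ and Lin- cells of normal glands (vertical axis) against the mean log2 signal of both gates (horizontal axis), 1 point per gene. The 496 lower genes (blue) reach down to Col3a1 at -10.01, while the 69 higher genes (red) stay at or under 2.11, the value of Trpm1, and the luminal genes Krt8 and Cd24a lie near 0 at the right.

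Luminal genes were abundant in both populations. Of 24 measured members of the luminal list 0 were called higher and 0 lower, beside 4.19% called of all genes, with a median difference of 0.20. The mean signal of the list was 12.22, 12.07 and 12.06 in the CD29+CD24+ arrays, against 12.07, 11.64 and 11.98 in the Lin- arrays. Krt8, a keratin of simple epithelia, had 14.92, 14.91 and 14.86 in CD29+CD24+ cells and 14.90, 14.94 and 14.83 in Lin- cells. The groups overlapped. Its partner Krt18 differed by 0.09 ± 0.95 and Krt19 by -0.01 ± 1.51, and the errors come from the spread within all 6 groups of the fit, the tumours and the CD29hiCD24+ arrays included. Fitted on the 6 arrays alone, the luminal list still held 0 calls.

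Markers of both kinds of luminal cell were present in either gate. Among hormone-sensing genes 0 of 12 were called, and Esr1, the estrogen receptor, had 12.45, 13.02 and 12.88 in CD29+CD24+ cells against 12.40, 12.33 and 12.29 in Lin- cells. These values did not overlap, but the difference of 0.45 ± 1.40 was small beside its error. The progesterone receptor Pgr differed by 0.23 ± 0.65 and the pioneer factor Foxa1 by 0.30 ± 0.85. Among genes of the secretory progenitor type 0 of 13 were called. Elf5, the transcription factor of alveolar cells, differed by 0.13 ± 0.94, and Kit, a receptor of luminal progenitors, by 0.42 ± 0.66. The milk list was mixed, as 6 of its 12 measured genes had a CD29+CD24+ mean in the low band and 5 a Lin- mean. The milk proteins Csn2 and Wap lay in the low band in both gates, with means that differed by 0.03 ± 2.81 and 0.00 ± 1.26. The casein Csn3 was high in both, with 13.26, 12.97 and 12.49 in CD29+CD24+ cells against 13.27, 13.04 and 12.85 in Lin- cells.

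Transcripts of the sorted surface proteins were not called. Itgb1, which encodes CD29, had 9.50, 9.11 and 9.78 in CD29+CD24+ cells against 9.48, 8.18 and 9.89 in Lin- cells. Cd24a had 15.47, 15.41 and 15.41 against 15.42, 14.99 and 15.18. Both sets of values overlapped between the gates. Of the 8 measured members of a list of gate and lineage surface genes 0 were called. Which of these lineages were depleted is not stated. Epcam, an epithelial adhesion molecule, differed by 0.37 ± 0.25, the luminal marker Prom1 by 0.27 ± 0.76 and Itga6 (CD49f) by -0.09 ± 0.13. Further down without passing the test lay Itgb3 (CD61) at -2.89 ± 0.84 with an adjusted p of 0.0554, Thy1 at -3.19 ± 1.09 with 0.138 and Ptprc (CD45) at -3.48 ± 1.45 with 0.295.

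Epithelial junction genes were called in 1 of 35 cases, beside 4.19% of all genes. That gene is Pkp1, a desmosomal plaque protein, which had 10.21, 9.61 and 9.56 in CD29+CD24+ cells against 10.73, 11.96 and 11.18 in Lin- cells and was lower by 1.5 ± 0.26 on the log2 scale (adjusted p = 0.000793). The junction list had a median difference of 0.16, and Cdh1, the epithelial cadherin, differed by 0.15 ± 0.16. Of 28 epithelial transcription factors 1 was lower, Tfap2c at -1.75 ± 0.28. Fitted on the 6 arrays alone, Pkp1 (adjusted p = 0.0934) and Tfap2c (0.134) were no longer called. Lists for proliferation, oxidative phosphorylation, immediate early and dissociation genes, squamous keratinisation and skeletal muscle each had 0 called members, of 20, 21, 22, 17 and 7 measured. Only 2 erythroid genes were measured, and neither was called. With 4.19% of all genes called, counts of 0 or 1 in lists of such sizes, here and elsewhere, do not set a list apart.

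**Figure D2:**
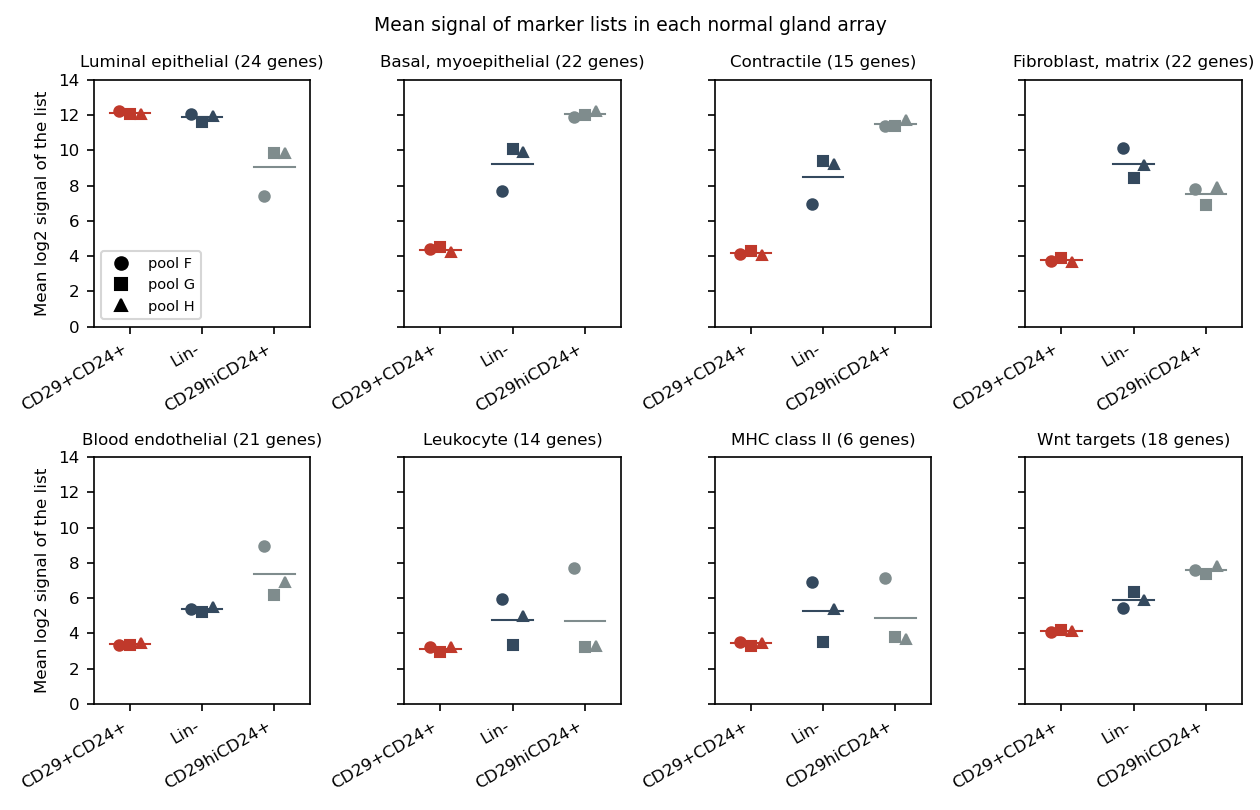
Mean log2 signal of 8 marker lists (vertical axis) in each array of the CD29+CD24+, Lin- and CD29hiCD24+ gates (horizontal axis), with symbols for pools F, G and H and a bar at the mean of 3 arrays. The luminal list stays at 12.22, 12.07 and 12.06 in CD29+CD24+ arrays and near it in Lin- arrays, while the basal list is at 4.41, 4.51 and 4.23 in CD29+CD24+ arrays, against 7.71, 10.08 and 9.91 in Lin- arrays.

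Basal genes were lower in the CD29+CD24+ cells as a body. Of 22 measured members of the basal and myoepithelial list 18 fell and 0 rose, with a median difference of -5.94. The list mean was 4.41, 4.51 and 4.23 in CD29+CD24+ arrays, against 7.71, 10.08 and 9.91 in Lin- arrays. Keratins showed the layer most plainly, since Krt5, Krt14 and Krt17 of the basal layer fell and the other 12 of 15 measured keratins were not called. Krt14 had 4.2, 3.99 and 3.72 in CD29+CD24+ cells and 9.40, 12.52 and 12.19 in Lin- cells. Every CD29+CD24+ array lay far below every Lin- array, and Lin- F lay below Lin- G and H. The difference was -7.40 ± 0.46 for Krt14 (adjusted p = 5.54e-10), -7.46 ± 0.59 for Krt17 and -6.50 ± 0.51 for Krt5. Krt15 (-1.88 ± 0.97), Krt23 (-1.47 ± 0.71), Krt16 (-0.55 ± 0.37) and Krt10 (-0.47 ± 0.96) did not pass the test, nor did Krt4, Krt7, Krt6a, Krt80 and Krt79, whose differences ran from -0.05 to 0.74.

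Regulators of the basal state fell as well. Trp63, the p63 transcription factor that basal epithelia need, had 2.77, 2.74 and 2.52 in CD29+CD24+ cells against 6.36, 8.10 and 8.29 in Lin- cells. Snai2 (Slug), a repressor of luminal genes, fell by 6.94 ± 0.44 and Id4, an inhibitor of helix-loop-helix factors, fell by 5.91 ± 0.56. Genes of attachment to the basement membrane split. The hemidesmosomal collagen Col17a1 fell by 6.63 ± 0.49, and the laminin chains Lama3 and Lamb3 fell by 4.13 ± 0.55 and 1.79 ± 0.34. Integrins of the same complex did not, as Itgb4 had 7.04, 6.01 and 6.54 in CD29+CD24+ cells and 6.90, 5.77 and 6.71 in Lin- cells. Cdh3, P-cadherin, differed by -0.25 ± 0.37 at a low signal in both gates. Lamb3 lost its call when fitted on the 6 arrays alone (adjusted p = 0.121). With the mean over a gene's probe sets, in place of the one with the highest signal, Trp63 differed by -1.95 in place of -4.91, Krt17 by -4.30 and Lama3 by -2.05, and all 3 stayed called.

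The contractile machinery of myoepithelial cells went with them. Of 15 measured smooth muscle genes 11 fell and 0 rose, with a median of -4.72. This list is not independent of the basal list. Acta2, Actg2, Cnn1, Myh11, Myl9, Mylk, Tagln and Tpm2 fell and are counted in both. Acta2, smooth muscle actin, had 6.91, 7.96 and 7.02 in CD29+CD24+ cells against 12.41, 14.42 and 14.11 in Lin- cells. The gates did not overlap, and the level left in CD29+CD24+ cells was above the low band. Myl9, the regulatory light chain of myosin, had 1.49, 1.65 and 1.5 against 7.13, 10.26 and 10.27, and Tagln (transgelin) fell by 7.07 ± 1.27. Mylk, the kinase of that light chain, fell by 6.90 ± 0.96, the actin-binding calponin Cnn1 by 6.24 ± 0.86, the smooth muscle myosin Myh11 by 5.96 ± 0.95 and the oxytocin receptor Oxtr, which triggers contraction, by 4.70 ± 0.80. The members not called were Synpo2 (-2.70 ± 0.84), Smtn (-2.04 ± 0.69), Tpm1 (-0.50 ± 0.32) and Lmod1 (-0.30 ± 0.22). With the mean over probe sets Acta2 differed by -3.22, Mylk by -4.19 and Myh11 by -3.07, all still called, and Actg2 lost its call when fitted on the 6 arrays alone (adjusted p = 0.25).

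Smooth muscle genes are classically driven by serum response factor, which binds the CArG box. Windows of 300 bases around gene starts (250 before and 50 after, RefSeq, GRCm38.p6) were searched for a perfect CArG box on both strands, and 1.63% of the 32851 windows held one. Of the 8 lower smooth muscle genes with a window 1 held it, Myl9, whose window is shown for that reason. It lies at chr2:156775214-156775513 on the plus strand, and the capitals mark the box, which starts 161 bases before the gene start. A match is a description of these letters and not a measured site. The sequence AACCGGTT, searched for in the junction list, was held by 0 of its 20 genes with a window and by 0.146% of all windows.
Myl9: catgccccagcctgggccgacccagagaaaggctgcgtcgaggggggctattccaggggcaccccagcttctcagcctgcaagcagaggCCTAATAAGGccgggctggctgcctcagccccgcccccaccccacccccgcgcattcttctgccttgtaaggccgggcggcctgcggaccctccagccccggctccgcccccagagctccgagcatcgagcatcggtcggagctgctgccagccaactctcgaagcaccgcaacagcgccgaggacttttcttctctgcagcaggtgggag

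The CD29hiCD24+ arrays of the same pools place the basal signal of the Lin- fraction. All 18 lower basal genes had a CD29hiCD24+ mean over 1 log2 unit above their Lin- mean. Turned to a linear scale, the Lin- signal of these 18 genes was a median of 3.12% of the CD29hiCD24+ signal in pool F (0.861% for Actg2 to 15% for Acta2), 22.6% in pool G (6.61% to 63.3%) and 14% in pool H (7.38% to 51.1%). For Krt14 the shares were 3.24%, 27% and 23.5%. Array signals compress at both ends, so these shares describe signal and give no cell numbers, and Acta2 comes near the top of the scale in both gates.

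**Figure D3:**
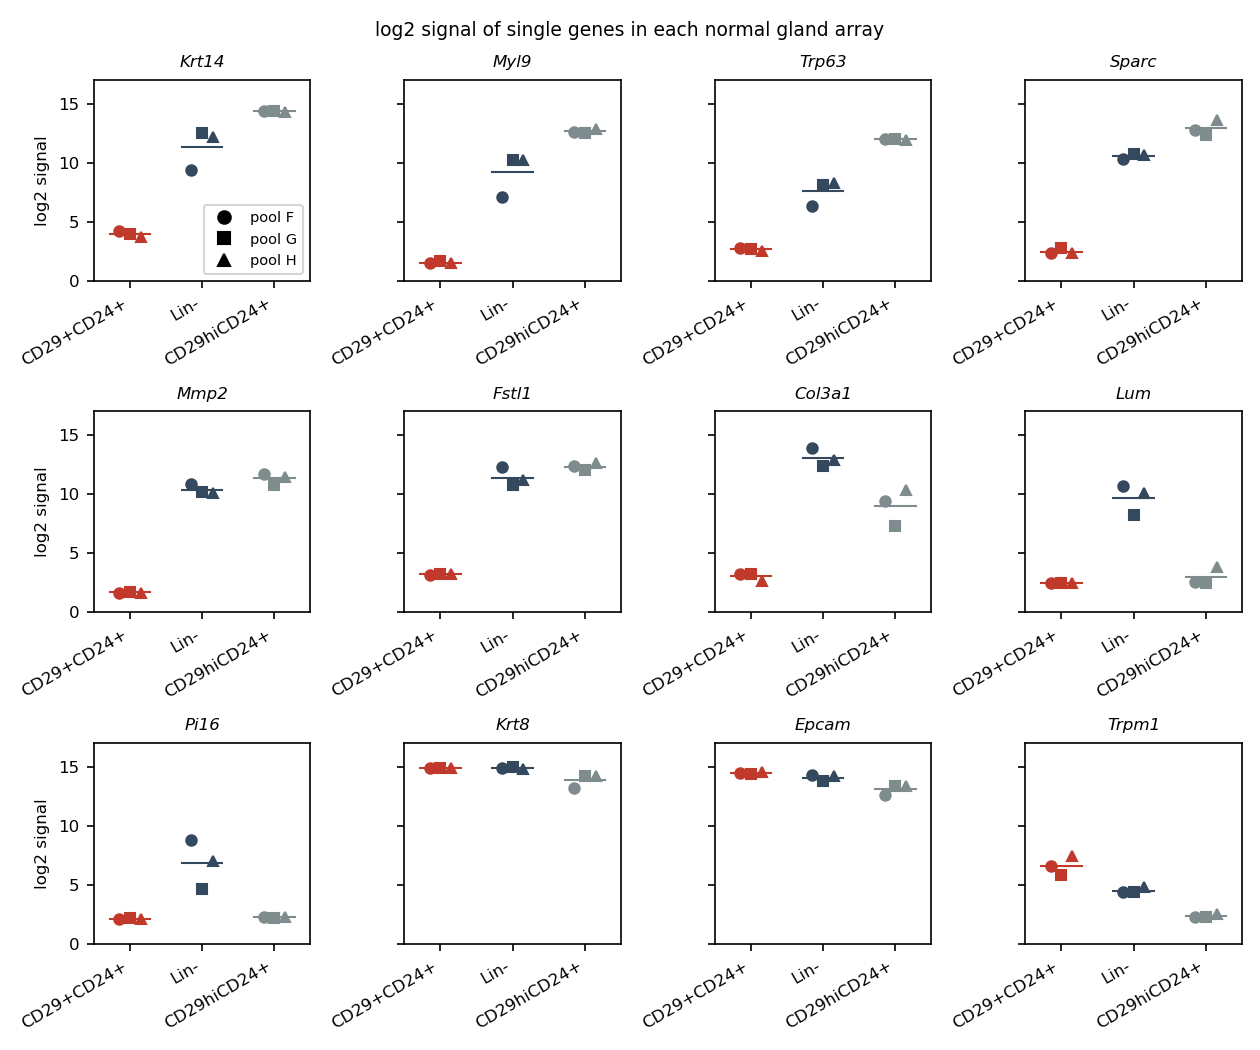
log2 signal (vertical axis) of 12 genes in each array of the CD29+CD24+, Lin- and CD29hiCD24+ gates (horizontal axis), with symbols for pools F, G and H and a bar at the mean of 3 arrays. Krt14, Myl9 and Trp63 step up through the gates, Sparc, Mmp2 and Fstl1 are high in both of the last gates, Col3a1, Lum and Pi16 are highest in Lin- arrays, Krt8 and Epcam are near level in the first 2 gates, and Trpm1 is highest in CD29+CD24+ arrays.

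Fibroblast and matrix genes were the other body of RNA missing from the gate. Of 22 measured members 17 fell and 0 rose, with a median of -5.18, and the list mean was 3.73, 3.90 and 3.67 in CD29+CD24+ arrays against 10.13, 8.41 and 9.18 in Lin- arrays. Col3a1, the fibrillar collagen of soft connective tissue, had the largest difference of all called genes, with 3.23, 3.27 and 2.66 in CD29+CD24+ cells and 13.94, 12.37 and 12.89 in Lin- cells. The gates lay far apart in every pool, by -10.01 ± 1.62 (adjusted p = 0.000322). Col1a2, a chain of type I collagen, differed by -8.98 ± 1.14 and its partner Col1a1 by -4.07 ± 0.90. Ogn (osteoglycin) fell by 8.29 ± 1.30, Dpt (dermatopontin) by 8.22 ± 1.43 and Lum (lumican), which orders collagen fibrils, by 7.18 ± 1.33. Pdgfra, the receptor that marks many fibroblasts, had 3.95, 3.57 and 2.63 in CD29+CD24+ cells against 9.35, 7.41 and 7.89 in Lin- cells. Without Lin- F and H the 17 calls of the list became 12, a comparison that rests on Lin- G alone and assumes that it varies like the other groups, and Dpt (adjusted p = 0.0569) and Lum (0.0927) were among those lost.

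Collagens fell in 15 of 21 measured cases and rose in 0, with a median of -4.07. Some of them, such as Col1a1, Col1a2, Col3a1 and Col5a2, are also counted in the fibroblast list. The basement membrane chains Col4a1 and Col4a2 fell by 5.37 ± 0.64 and 6.09 ± 0.68, the fibrillar chain Col5a2 by 7.96 ± 0.56 and the fibril-associated Col14a1 by 7.53 ± 1.30. Not all did. Col8a1 had 11.07, 11.73 and 12.09 in CD29+CD24+ cells against 10.83, 10.16 and 11.57 in Lin- cells, and the groups overlapped. Col4a5, Col4a6 and Col6a3 were also high in both gates, with differences of -0.35 ± 0.53, 0.06 ± 0.40 and -0.23 ± 1.18. Col6a3 thus stood apart from its partners Col6a1 and Col6a2, which fell by 5.57 ± 1.08 and 5.53 ± 1.08. These genes were picked out after their values were seen.

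Proteoglycans and matricellular genes fell in 16 of 21 measured cases and rose in 0 (median -4.60). Some of them, such as Sparc, Postn, Lum and Ogn, are also counted in the fibroblast list. Sparc, a collagen-binding glycoprotein, had 2.34, 2.75 and 2.36 in CD29+CD24+ cells against 10.31, 10.74 and 10.66 in Lin- cells. Its spread within each gate was small beside the difference of -8.09 ± 0.48 (adjusted p = 3.58e-10). Postn (periostin) fell by 7.79 ± 0.95, the fibulin-like Efemp1 by 7.69 ± 1.62 and Fn1 (fibronectin) by 7.32 ± 1.30. Ccn1, a matricellular gene of the same list, had 12.61, 12.95 and 12.98 in CD29+CD24+ cells and 13.01, 12.27 and 12.98 in Lin- cells, whereas its relative Ccn2 fell by 5.77 ± 1.0. Of 15 matrix proteases and inhibitors 6 fell, led by Mmp2, the gelatinase, with 1.68, 1.77 and 1.68 in CD29+CD24+ cells and 10.86, 10.18 and 10.11 in Lin- cells. Mmp2 fell by 8.67 ± 0.52, the elastin cross-linker Loxl1 by 5.05 ± 1.07 and cathepsin K (Ctsk) by 4.64 ± 1.26. The call for Ctsk was lost with any array but Lin- G left out (adjusted p 0.0917 to 0.169), without a filter (0.0506) and with a block for the ranges of description numbers in the labels (0.188), and that for Loxl1 with this block (0.0529). Fn1 differed by -3.69 with the mean over probe sets. Igfbp3 and Fstl1, a carrier of insulin-like growth factors and a secreted follistatin relative, complete the 12 lowest genes with -8.11 ± 0.67 and -8.18 ± 0.74.

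Signalling genes of the stroma fell in smaller number. Their counts, like those of the other lists, stand beside 3.68% of all genes called lower. Of 15 stromal receptors 5 fell, among them Procr, the protein C receptor, at -5.85 ± 0.68, and Pdgfrb, which also marks pericytes, at -5.03 ± 0.99. Of 16 stromal ligands 2 fell, Pdgfd at -3.01 ± 0.71 and Vegfd, a lymphatic growth factor, at -2.89 ± 0.67. Neither ligand was called without Lin- F or without CD29+CD24+ F, and Vegfd was not called without CD29+CD24+ H, with the 6 arrays alone or with the description-number block. The complement and stromal immune list had 4 lower of 15, with Il6 at -7.43 ± 0.87 and the C1 inhibitor Serping1 at -7.35 ± 1.38. Il6 had 2.38, 5.37 and 2.51 in CD29+CD24+ cells and 11.40, 10.60 and 10.55 in Lin- cells, so that 1 CD29+CD24+ array, G, stood above the other pair. Il6 and C1s1 of this list had a CD29hiCD24+ mean over 1 log2 unit above the Lin- mean. Serping1 and Cxcl13 lay over 1 unit below it. The call for C1s1, at -2.94 ± 0.75, was lost with the description-number block (adjusted p = 0.092). It was also lost without Lin- F or H, or without CD29+CD24+ F or G (0.07 to 0.104). Of 23 mesenchymal transcription factors 6 fell, with Prrx1 at -4.01 ± 0.86 and Ebf1 at -3.95 ± 0.75 after Snai2. With the mean over probe sets Pdgfd differed by -1.22, Pdgfrb by -2.53, Prrx1 by -1.5 and Ebf1 by -2.48, all called. The intermediate filament Vim (vimentin) fell by 7.16 ± 0.68 and galectin 1 (Lgals1) by 5.22 ± 0.69, and with Tpm2, Cald1 and Cd44 they were the 5 lower of 20 cytoskeleton and adhesion genes. All 5 had a CD29hiCD24+ mean over 1 log2 unit above the Lin- mean. The call for Cd44, at -0.87, was lost with the 6 arrays alone (adjusted p = 0.302), with a covariate for each array's 3' minus 5' actin signal, called the actin covariate (0.0652), and without CD29+CD24+ F (0.0981), Lin- G (0.142, at -0.57) or CD29+CD24+ H (0.0939).

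Wnt pathway genes fell in 8 of 18 measured cases and rose in 0, with a median of -1.08. Most of the 8 are secreted or membrane inhibitors of the pathway, but so are many members of the list, so that share is no result about inhibitors. The 10 members not called include the inhibitors Axin2, Nkd1, Notum, Rnf43, Znrf3 and Dkk2. Wif1, which binds Wnt ligands, had 3.15, 3.14 and 3.29 in CD29+CD24+ cells against 5.18, 8.47 and 7.74 in Lin- cells. The decoy receptors Sfrp1, Sfrp2 and Sfrp4 fell by 3.2 ± 0.48, 2.47 ± 0.56 and 1.97 ± 0.50, the Dickkopf relative Dkk3 by 3.44 ± 0.51 and the membrane inhibitor Apcdd1 by 2.77 ± 0.40. The others are Ccnd2, a cyclin, which fell by 5.49 ± 0.50, and Lgr5, a receptor for R-spondins, with 2.04, 2.13 and 2.08 in CD29+CD24+ cells and 3.87, 7.17 and 6.32 in Lin- cells. Of the 8, 6 had a CD29hiCD24+ mean over 1 log2 unit above the Lin- mean, while Sfrp4 lay as far below it. Several of these calls depend on a setting. With the mean over probe sets Sfrp1 differed by -0.62 (adjusted p = 0.27) and Apcdd1 by -1.13 (0.134), neither of them called, and Ccnd2 by -3.33, still called. Sfrp4 was not called with any CD29+CD24+ array left out (0.0652 to 0.08), with the 6 arrays alone (0.394) or with the description-number block (-1.39, 0.243), and was at -0.93 without Lin- F. Sfrp2 lost its call without Lin- F (0.051), and Wif1 (0.0614) and Lgr5 (0.0693) with the 6 arrays alone.

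Among genes of epithelial exchange, 2 of 17 ligands fell, the Notch ligands Jag2 (-3.15 ± 0.49) and Jag1 (-1.20 ± 0.30), beside 3.68% of all genes. Of 19 epithelial receptors 2 fell, the EGF receptor Egfr (-3.68 ± 0.38) and the IGF receptor Igf1r (-2.04 ± 0.33). Egfr had 4.62, 4.80 and 3.51 in CD29+CD24+ cells and 8.67, 7.96 and 7.34 in Lin- cells, without overlap. The defence list held 1 lower gene of 23, the protease inhibitor Slpi at -4.47 ± 0.50, and the transport list 1 of 22, the sodium channel subunit Scnn1g at -1.87 ± 0.53. Both counts are near the share of 4.19% called over all genes. The call for Scnn1g was lost with each of the 6 arrays left out in turn (adjusted p 0.0732 to 0.197), after quantile normalisation (0.134), without a filter (0.0606) and with the actin covariate (0.0986). Fitted on the 6 arrays alone, Jag1 (0.307), Jag2 (0.073) and Igf1r (0.105) were not called. Jag1 also lost its call with the actin covariate and without Lin- G (-0.74, 0.177), CD29+CD24+ F or CD29+CD24+ H. With the mean over probe sets Egfr differed by -2.09, Igf1r by -0.81 and Jag2 by -1.59, all called.

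Some vascular genes were lower in the CD29+CD24+ cells. Of 21 measured blood endothelial genes 6 fell and 0 rose (median -1.67), beside 3.68% of all genes called lower. The list mean was 3.36, 3.35 and 3.47 in CD29+CD24+ arrays against 5.41, 5.2 and 5.49 in Lin- arrays. Selp (P-selectin) had 3.94, 3.96 and 4.0 in CD29+CD24+ cells and 10.79, 10.62 and 9.38 in Lin- cells, and was lower by 6.30 ± 1.18 on the log2 scale. Cd34, shared by endothelium and fibroblasts, fell by 6.19 ± 1.0 and Plvap, of fenestrated vessels, by 4.28 ± 0.95. Pecam1 and Tie1, also of this list, were not tested, since no probe set of theirs exceeded the low band in at least 3 of the 24 arrays. Without Lin- F and H, 2 of the 6 calls were made. Of 7 lymphatic genes 2 fell, Pdpn and Reln, at -5.93 ± 0.62 and -4.36 ± 0.95, and both were higher still in CD29hiCD24+ arrays, where Pdpn had 11.70, 11.84 and 11.73. The adipocyte list held 3 lower of 9, the fatty acid binding protein Fabp4 (-7.05 ± 1.38), the lipase Lpl (-6.25 ± 1.70) and the fatty acid transporter Cd36 (-3.33 ± 0.69). Pmp22, a myelin protein, was the 1 lower gene of 8 in the Schwann list at -2.47 ± 0.63, and that call was lost without either gate's array of pool G or of pool H. The call for Lpl was lost with each of the 6 arrays left out in turn (adjusted p 0.0587 to 0.124) and without a filter (0.0516), and that for Reln without Lin- G (0.0544) and with the 6 arrays alone (0.101). With the mean over probe sets Lpl differed by -3.87, Fabp4 by -4.12 and Reln by -2.17, all called.

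Immune genes were uneven among the Lin- arrays. Of 14 measured leukocyte genes 0 were called, with a median of -1.08. Their mean was 3.22, 2.97 and 3.23 in CD29+CD24+ arrays, against 5.96, 3.36 and 5.0 in Lin- arrays. Ptprc, the pan-leukocyte CD45, had 2.72, 2.66 and 2.67 in CD29+CD24+ cells and 7.78, 2.60 and 8.09 in Lin- cells, so that Lin- G was in the low band and Lin- F and H were well above it. Laptm5, of leukocyte lysosomes, followed with 9.69, 5.15 and 8.94 in Lin- cells. Of 6 class II genes 0 were called, although H2-Aa had 5.11, 4.14 and 3.68 in CD29+CD24+ cells against 10.88, 5.41 and 8.57 in Lin- cells. These Lin- values move with the stromal genes described next, and their part in that result was not tested. Without Lin- G, 1 leukocyte gene and 1 class II gene were called.

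The genes lower in CD29+CD24+ cells could be divided by their level in the CD29hiCD24+ arrays. Those arrays are not part of the difference itself, but they enter its error, the filter and the choice of probe set. Of the 496, 366 (73.8%) had a CD29hiCD24+ mean over 1 log2 unit above the Lin- mean, 69 (13.9%) lay within 1 unit of it and 61 (12.3%) lay over 1 unit below. The first group took in all 18 lower basal genes and 11 of the 11 lower contractile genes, with members shared between these lists. The last took in 8 of the 17 lower fibroblast genes, namely Col1a1, Col1a2, Col3a1, Dpt, Lum, Ogn, Pdgfra and Pi16. Sparc, Postn, Col5a2 and Fbln2 of the fibroblast list had the first pattern, and Sparc reached 12.78, 12.35 and 13.63 in CD29hiCD24+ arrays. These levels use the same Lin- arrays as the calls, and are given as a description.

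The Lin- arrays differed along this division, and here pool and description number (93, 84 and 95) cannot be told apart. Among the 366 genes with the higher CD29hiCD24+ level, the highest Lin- signal was in pool G for 240, in F for 67 and in H for 59. Among the 61 genes with the lower CD29hiCD24+ level it was in F for 50, in H for 9 and in G for 2. The median Lin- signal of the 61 genes was 8.55, 6.17 and 6.83, beside 2.91, 2.90 and 2.80 in CD29+CD24+ arrays. Pi16, a marker of fibroblasts around vessels, had 2.12, 2.19 and 2.14 in CD29+CD24+ cells and 8.76, 4.66 and 7.0 in Lin- cells. Among the Lin- arrays, F had the highest mean of the fibroblast list and the lowest of the basal list. Other lists had another order, as the collagen mean was 8.73, 9.05 and 9.02 and the blood endothelial mean was highest in H. The collagen list mixes orders and shares Col17a1 with the basal list. In Lin- cells Col3a1 had 13.94, 12.37 and 12.89, while Col17a1 had 7.0, 10.22 and 10.02. Mfap5, a microfibril gene with 8.30, 2.73 and 6.71 in Lin- cells, did not pass the test (-3.78 ± 1.25, adjusted p = 0.118). Pi16 lost its call with the 6 arrays alone (0.0585). Without Lin- F and H, a number of genes named here lost their calls. They were Pi16 (-2.51), Col1a1, Dpt, Lum, Col6a1, Efemp1, Fn1, Loxl1, Ctsk, Prrx1, Pdgfd, Vegfd and Serping1. The others were C1s1 (-2.23), Cxcl13 (-2.83), Sfrp2 (-1.58), Sfrp4 (-0.80), Cd34, Plvap, Cd36, Lpl, Pmp22, Scnn1g, Calr3 and Slc9a7 (0.70).

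**Figure D4:**
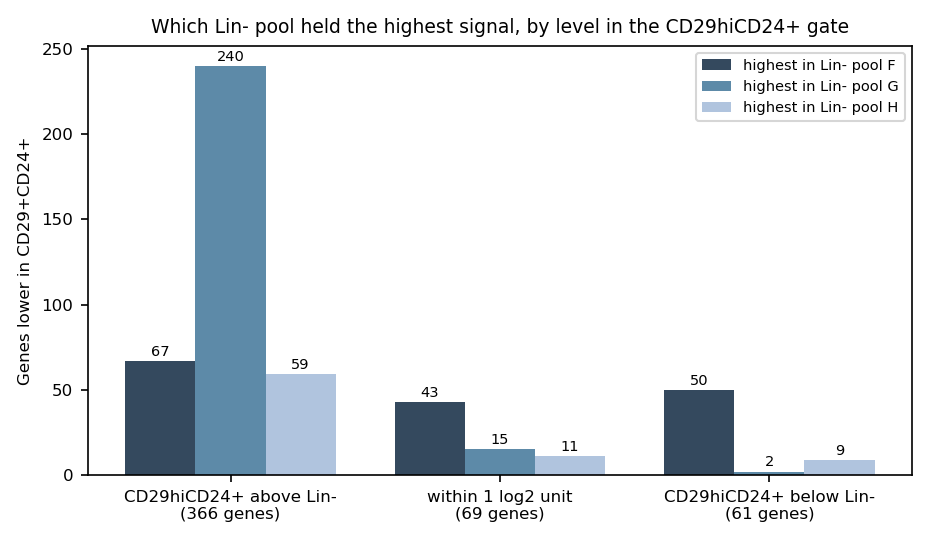
Number of genes lower in CD29+CD24+ cells (vertical axis) by the pool whose Lin- array had the highest signal, in 3 groups set by the level in CD29hiCD24+ arrays relative to Lin- (horizontal axis). Pool G leads with 240 of 366 genes in the first group, and pool F with 50 of 61 in the last.

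Few genes were higher in CD29+CD24+ cells, and by little. Of the 69, 33 reached 2-fold, and 16 had a Lin- mean in the low band. Of them 0 were members of the gene lists described above. Trpm1, a cation channel known from retina and pigment cells, was the highest with 6.60, 5.82 and 7.47 in CD29+CD24+ cells against 4.37, 4.39 and 4.80 in Lin- cells, at 2.11 ± 0.23 (adjusted p = 2.28e-06). Cdh17, a cadherin of intestinal epithelium, had 4.93, 5.25 and 4.91 against 4.04, 2.93 and 3.35. In CD29hiCD24+ arrays Trpm1 had 2.28, 2.32 and 2.53 and Cdh17 had 2.10, 2.07 and 2.35, so that the Lin- level of both genes lay between the other gates in every pool.

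Other genes among the 12 highest were AI429214 at 1.86 ± 0.32 and Asb8, of the SOCS box family, at 1.70 ± 0.29. Chn1, a GTPase-activating protein that acts on Rac, was at 1.59 ± 0.30 and Fndc10 at 1.53 ± 0.36. The Golgi exchanger Slc9a7 (1.52 ± 0.39), the nucleotide sugar transporter relative Slc35d3 (1.51 ± 0.31), Mfsd4b4 (1.5 ± 0.26), the Sec14-like lipid binder Sec14l4 (1.38 ± 0.33), the testis calreticulin Calr3 (1.33 ± 0.28) and the zinc finger gene Zbtb26 (1.30 ± 0.30) make up the rest. Their signals were modest, as Asb8, with 7.38, 6.84 and 7.60 in CD29+CD24+ cells and 6.23, 4.87 and 5.62 in Lin- cells, was the second brightest of the 12 after Sec14l4. Fitted on the 6 arrays alone, 6 genes were called higher in place of 69. In that fit Trpm1 (adjusted p = 0.0662), Asb8 (0.116), Chn1 (0.293), Fndc10 (0.152) and Slc9a7 (0.307) were not called. Nor were Slc35d3 (0.307), Mfsd4b4 (0.241), Sec14l4 (0.413), Calr3 (0.254) and Zbtb26 (0.0865). AI429214 and Cdh17 were not among the calls lost there. Other settings also removed calls. Of the 12 named genes, Slc9a7 lost its call without Lin- H (0.94, adjusted p = 0.177), with the description-number block (0.52, 0.409), with the replicate block (0.0556) and without CD29+CD24+ G or H. Fndc10 lost it without CD29+CD24+ F, Lin- G or CD29+CD24+ H and with the actin covariate, Zbtb26 without either array of pool G and with that covariate, and Sec14l4 without CD29+CD24+ H and with it. Sec14l4 was at 0.71 without Lin- G, still called. With the mean over probe sets Trpm1 differed by 1.09, Fndc10 by 0.89 and Zbtb26 by 0.64, all called.

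The same gates in tumours, which share no array with the normal glands, differed far less. Between tumour CD29+CD24+ and tumour Lin- cells 29 genes were called (0.215%), 28 lower (0.208%) and 1 higher (0.00742%). Of the 565 genes called in normal glands 14 were called in tumours with the same sign, which is 2.48% of the normal calls and 48.3% of the tumour calls. The gate difference itself differed between normal glands and tumours for 246 genes (1.82%), 221 with a lower (1.64%) and 25 with a higher value (0.185%) in normal glands. With a replicate block for pools and tumours that count was 478, and the tumour count was 81. The tumour count ranged from 0 to 114 with 1 tumour array left out, lowest without the CD29+CD24+ array of tumour B and highest without the Lin- array of tumour D.

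Basal genes gave the widest gap. Of 22 basal genes 18 fell in normal glands and 0 in tumours, and for 14 the difference between these was called. Krt14 differed by -7.40 ± 0.46 in normal glands and by -0.07 ± 0.35 in tumours, where the CD29+CD24+ mean was 14.64 ± 0.15 and the Lin- mean was 14.71 ± 0.16 (SD, n = 5 each). In the normal CD29hiCD24+ arrays Krt14 had 14.35, 14.41 and 14.28. Krt17 (-7.46 ± 0.59 in normal glands, -0.16 ± 0.46 in tumours) and Snai2 (-6.94 ± 0.44 in normal glands, 0.25 ± 0.34 in tumours) were alike in this. Igfbp3 (-8.11 ± 0.67 in normal glands, 0.02 ± 0.52 in tumours) and Antxr1, an anthrax toxin receptor that binds collagen (-7.19 ± 0.34 in normal glands, 0.12 ± 0.26 in tumours), are further cases outside the basal list. The adjusted p of the difference for these 5 genes ran from 1.75e-09 for Antxr1 to 2.77e-06 for Igfbp3. Some contractile members of the basal list were instead low in both tumour gates, where a fall could hardly be seen. Cnn1 had tumour means of 2.30 in CD29+CD24+ and 3.02 in Lin- cells, and Oxtr 2.67 and 2.78. Other members were not low there, as Acta2 had 8.54 and 10.45 and Tpm2 11.85 and 12.03.

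Fibroblast genes had lower values than basal genes in the tumour gate comparison. In tumours 4 of 22 fell, and for 6 the difference between normal glands and tumours was called. Col3a1 differed by -10.01 ± 1.62 in normal glands and by -6.00 ± 1.25 in tumours, and the difference of -4.01 ± 2.05 did not pass the test (adjusted p = 0.677). Lum differed by -7.18 ± 1.33 in normal glands and by -5.69 ± 1.03 in tumours, and Col1a1 by -4.07 ± 0.90 in normal glands and by -3.30 ± 0.70 in tumours. Sparc was otherwise, at -8.09 ± 0.48 in normal glands and -1.11 ± 0.37 in tumours (adjusted p of the difference 2.59e-07). The median over the fibroblast list was -5.18 in normal glands and -2.77 in tumours. Over the basal list it was -5.94 in normal glands and -0.09 in tumours, and over the luminal list 0.20 in normal glands and 0.49 in tumours.

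**Figure D5:**
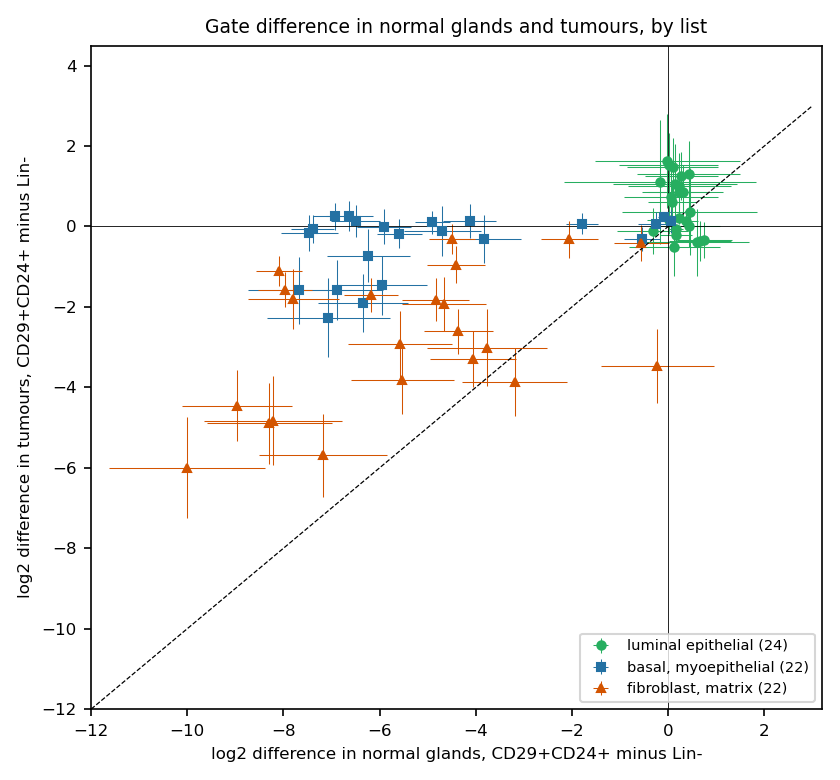
log2 difference between CD29+CD24+ and Lin- cells in tumours (vertical axis) against that in normal glands (horizontal axis) for 24 luminal, 22 basal and 22 fibroblast genes, with standard errors and a dashed line of equal differences. The 18 lower basal genes lie to the left, the tumour values of the basal list run from -2.27 to 0.26, fibroblast genes reach down to -6.00 in tumours, and luminal genes sit around 0 on the horizontal axis.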

How the data were processed

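The deposited values are log2 signals per probe set of 24 Affymetrix arrays, which the authors background-corrected, normalised and summarised before deposit; the values themselves show the log2 scale. Per the submitters' processing notes RMA, GCRMA and Partek were used, with no versions, roles or order stated. Per the labels' protocols RNA was amplified in 2 cycles and biotin-labelled. Of 45101 probe sets 34945 had 1 gene name, 932 several, 9160 none and 64 were controls; 34741 matched a gene of the reference annotation. A probe set was kept where at least 3 arrays exceeded the 40th percentile of the table, and the kept one with the highest mean stood for its gene.

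limma 3.58.1 in R 4.3.3 fitted 6 group means over all 24 arrays (lmFit, contrasts.fit, eBayes with a trend), which leaves 18 residual degrees of freedom, and p-values were Benjamini-Hochberg adjusted over 13485 genes. The script was tested on simulated data. Pool H was assigned by elimination for the arrays whose titles carry no letter. The pool letters come from the titles and pair the gates: deviations from the group means correlated at 0.206, 0.281 and 0.319 within pools F, G and H and at -0.255 to -0.049 between pools. Named genes were the 12 highest and 12 lowest called genes without overlap, up to 3 called members of each list with the largest difference, all measured keratins and surface genes, and the 6 highest and 6 lowest differences between normal glands and tumours; further genes were added after their values were seen. The members, the 37 gene lists and the tests were chosen with earlier results of these data known. Alternatives covered the groups fitted, a replicate block, quantile normalisation, filters, probe set choice, variance trend, array weights, blocks of the description numbers in the labels, an actin 3' minus 5' covariate and each array left out; 1 more, without Lin- F and H, was chosen after seeing the data. The number of arrays limits the precision.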

Additional observations from a re-analysis of the deposited data

Results flagged for a closer look

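The gate difference was tested between normal glands and tumours, and 246 genes passed. The largest positive value among them was 3.54 for Esm1, an endothelial proteoglycan, which differed between the gates by 0.40 ± 0.64 in normal glands and by -3.14 ± 0.50 in tumours. Sdr42e1 had 2.49, and the 4 genes next in order were AI429214 (2.13), Trpm1 (2.11), Asb8 (1.86) and Cdh17 (1.58), of which Trpm1 and Cdh17 lay in the low band in the tumour arrays of both gates. The lowest values were -8.13 for Igfbp3, -7.33 for Krt14, -7.31 for Antxr1, -7.30 for Krt17, -7.19 for Snai2 and -6.98 for Sparc.

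Among the named genes and tumour groups, 24 groups of 5 arrays were tested for an array far from the rest, and 2 stood out. Igfbp3 was at 12.03 in CD29+CD24+ cells of tumour A, where the other tumours had 13.97 to 14.39, and at 12.35 in Lin- cells of tumour A, where the others had 13.85 to 14.38. About 1 in 20 such groups is marked by chance.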

How the results depend on the processing

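Of the genes named as most extreme, the genes named for the difference and the list members, 0 that were called in either fit changed sign. Of the 565 calls, 307 (with only the compared groups fitted) to 561 (with a replicate block) were kept with the same sign. The median of the luminal list was 0.20, and -0.05 with the actin covariate. The normal gate comparison gave 565 calls, and from 423 to 612 with 1 array left out (51 to 100 higher, 368 to 524 lower). A replicate block gave 903 calls (110 higher, 793 lower), and a block of the description numbers 864 (185 higher). Higher calls numbered 6 with only the compared groups fitted, 113 after quantile normalisation and 281 without Lin- F and H, where 540 were lower. Of the 24 most extreme genes, 380 of 408 repeated tests stayed past the threshold and 28 did not. The calls of the basal list stayed at 18 except for 16 with only the compared groups fitted. The difference between normal glands and tumours gave 246 calls, 478 with a replicate block (59 higher, 419 lower), 433 with the description-number block (72 higher, 361 lower), and 16 higher with only the compared groups fitted. With 1 array left out it gave 189 to 345 (19 to 48 higher, 164 to 305 lower); the higher count was 40 without Lin- F, 45 without CD29+CD24+ G and 48 without Lin- H. The tumour comparison gave 29 calls (1 higher, 28 lower) and 0 with only the compared groups fitted (0 higher, 0 lower). It gave 81 with a replicate block (3 higher, 78 lower), 96 with array weights (3 higher, 93 lower), 13 without a filter (12 lower), 48 with a filter at the median (47 lower), 15 without a variance trend (14 lower) and 2 higher with the description-number block. With 1 array left out it gave 0 to 114 (0 to 2 higher, 0 to 112 lower), lowest without CD29+CD24+ of tumour B and highest without Lin- of tumour D. The causes were not tested. Genes in the low band limit what small differences can show.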

Other observations

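Some genes differed between the pools in the same way in both gates. Sftpd, surfactant protein D, had 3.02, 7.83 and 2.35 in CD29+CD24+ cells of pools F, G and H, against 2.68, 8.53 and 2.33 in Lin- cells. Aldh3a1, an aldehyde dehydrogenase, was also high in pool G, with 4.79, 7.74 and 3.14 in CD29+CD24+ cells and 4.01, 8.80 and 3.04 in Lin- cells. Pool F led for Padi4, an enzyme that turns arginine into citrulline (8.84, 5.94 and 4.87 in CD29+CD24+ cells, 8.33, 4.04 and 5.88 in Lin- cells), for Fam83e (6.39, 2.91 and 2.92 in CD29+CD24+ cells, 6.31, 3.04 and 2.87 in Lin- cells) and for the peptidase Klk7 (7.30, 4.67 and 3.94 in CD29+CD24+ cells, 7.16, 3.94 and 4.92 in Lin- cells). All 5 were picked for their spread.

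In all, 93 genes spanned over 2 log2 units among the CD29+CD24+ arrays and 587 among the Lin- arrays. Of the 93, E2f5, Pik3cd and Cryl1 had the highest differences of all genes tested and were not called. E2f5, a repressor of the E2F family, had 11.78, 9.48 and 13.67 in CD29+CD24+ cells against 8.77, 8.77 and 8.69 in Lin- cells. Pik3cd, a catalytic subunit of PI3 kinase, had 9.30, 8.26 and 12.03 against 7.31, 7.61 and 7.32, and Cryl1, a lambda crystallin, had 10.19, 8.10 and 12.07 against 7.31, 7.36 and 8.42. Each of them was highest in pool H and lowest in pool G in CD29+CD24+ cells, and none showed that order in Lin- cells.

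Glycam1, a mucin-like gene of milk and of lymph node venules, had 2.45, 2.5 and 2.53 in CD29+CD24+ cells, 9.88, 2.78 and 13.45 in Lin- cells, the widest span of all genes tested there, and 12.47, 11.06 and 13.00 in CD29hiCD24+ cells. Lyz1, a lysozyme, had 3.25, 3.02 and 2.49 in CD29+CD24+ cells, 9.54, 2.55 and 7.74 in Lin- cells and 12.82, 2.74 and 3.37 in CD29hiCD24+ cells.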
